A study of Mus musculus with 16 samples.

Results

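The 44 genes described here act in the G2 phase of the cell cycle and in mitosis, from the kinases that start mitosis to the proteins that divide the cell. They were taken from a list of named genes, and each was matched by symbol to its Ensembl identifier. All 44 had counts in the E15.5 mouse cortex, among 27394 genes with any count and 51912 genes listed. UMI RNA-seq counts were analyzed from the micro-dissected cortex of 15 mice, in 16 libraries. The 4 cKO mice were *Knl1* fl/fl with *hGFAP-Cre*, a transgene that acts in cortical NPCs and leaves *Knl1* intact in cells that it does not reach. The 4 dKO mice had in addition both *Trp53* alleles floxed, so that *Knl1* and the gene for p53 were deleted in the same cells. The 7 ctrl mice comprised 5 labelled wild type and 2 labelled heterozygous, and their labels do not state whether they carried *hGFAP-Cre*. KNL1 (named Casc5 in some of the labels) is a kinetochore protein of the spindle assembly checkpoint, and none of the 44 genes is itself deleted.

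Cortical NPCs of the VZ and SVZ divide repeatedly before their daughters become neurons, and dividing cells accumulate the mRNAs of G2 and mitosis only late in each cycle. Entry into mitosis is set by cyclin B bound to CDK1, which phosphatases of the CDC25 family switch on and which PLK1 and Aurora A reinforce. The genes are repressed in quiescent cells by the DREAM complex, and activated in G2 by B-MYB on the MuvB core and by FOXM1, through promoter elements known as the cell cycle genes homology region (CHR) and the CCAAT box. In bulk cortex, fewer dividing cells and less of these mRNAs per dividing cell cannot be told apart.

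Promoters of the mouse RefSeq set (build GRCm38.p6) were available for 38 of the 44 genes, each from 250 bases before to 50 bases after the start of the gene. Shown are the promoters of *Cdk1*, its partners *Ccnb1* and *Ccnb2*, the kinase *Plk1*, the mitotic ubiquitin enzyme *Ube2c*, and *Ect2*, which had the smallest p in cKO versus ctrl. They lie at chr10:69352863-69353162 (minus strand, *Cdk1*), chr13:100786437-100786736 (minus, *Ccnb1*), chr9:70421505-70421804 (minus, *Ccnb2*), chr7:122159185-122159484 (plus, *Plk1*), chr2:164769679-164769978 (plus, *Ube2c*) and chr3:27153829-27154128 (minus, *Ect2*). Each is written 5′ to 3′ on the strand of its gene, and capitals mark TTTGAA and TTTAAA, the letters of a CHR, and CCAAT, or these letters read from the opposite strand, where TTTGAA appears as TTCAAA and the CCAAT box as ATTGG.
Cdk1: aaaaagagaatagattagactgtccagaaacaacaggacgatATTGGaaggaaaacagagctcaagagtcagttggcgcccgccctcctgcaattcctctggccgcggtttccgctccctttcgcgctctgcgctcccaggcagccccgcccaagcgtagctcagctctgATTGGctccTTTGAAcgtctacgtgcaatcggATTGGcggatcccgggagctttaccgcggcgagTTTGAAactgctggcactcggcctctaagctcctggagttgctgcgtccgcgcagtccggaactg
Ccnb1: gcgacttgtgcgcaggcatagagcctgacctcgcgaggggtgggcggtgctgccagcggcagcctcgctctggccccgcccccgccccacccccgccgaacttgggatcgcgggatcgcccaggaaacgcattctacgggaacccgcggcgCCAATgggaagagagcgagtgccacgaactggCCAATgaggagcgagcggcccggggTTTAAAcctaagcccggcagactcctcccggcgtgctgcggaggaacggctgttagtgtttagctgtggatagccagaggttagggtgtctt
Ccnb2: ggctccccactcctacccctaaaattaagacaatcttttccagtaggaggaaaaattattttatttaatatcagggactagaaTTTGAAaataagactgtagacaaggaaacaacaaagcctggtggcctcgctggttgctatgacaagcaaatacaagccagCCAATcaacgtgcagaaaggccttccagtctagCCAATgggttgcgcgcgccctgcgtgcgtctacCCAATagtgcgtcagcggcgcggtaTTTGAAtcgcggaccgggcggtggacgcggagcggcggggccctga
Plk1: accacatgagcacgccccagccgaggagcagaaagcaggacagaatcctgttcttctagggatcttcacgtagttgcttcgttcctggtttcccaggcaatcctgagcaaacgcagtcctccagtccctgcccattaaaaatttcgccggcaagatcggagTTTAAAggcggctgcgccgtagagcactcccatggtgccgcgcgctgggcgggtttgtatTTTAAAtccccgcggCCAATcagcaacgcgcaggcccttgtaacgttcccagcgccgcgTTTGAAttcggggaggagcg
Ube2c: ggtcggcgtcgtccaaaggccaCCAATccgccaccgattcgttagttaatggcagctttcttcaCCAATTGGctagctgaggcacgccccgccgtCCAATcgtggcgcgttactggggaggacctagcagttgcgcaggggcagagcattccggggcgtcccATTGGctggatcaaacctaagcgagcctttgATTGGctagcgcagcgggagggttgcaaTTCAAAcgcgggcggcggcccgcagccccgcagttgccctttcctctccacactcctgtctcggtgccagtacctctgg
Ect2: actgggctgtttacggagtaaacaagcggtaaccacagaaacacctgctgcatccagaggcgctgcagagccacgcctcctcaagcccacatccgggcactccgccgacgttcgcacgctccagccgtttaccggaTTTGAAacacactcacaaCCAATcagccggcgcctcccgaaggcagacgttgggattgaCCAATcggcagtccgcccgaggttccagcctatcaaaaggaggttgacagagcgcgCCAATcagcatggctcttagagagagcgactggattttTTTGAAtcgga

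In *Cdk1* the letters TTTGAA stood 71 and 15 bases before the gene start, with CCAAT boxes on the opposite strand between and before them. *Ccnb1* had TTTAAA 42 bases before the start and a pair of CCAAT boxes upstream of it. In *Ube2c*, 2 of the CCAAT matches overlapped each other in the letters CCAATTGG, which read the same on both strands. Of the 38 promoters, 26 (68.4%) held TTTGAA on either strand, against 18.1% of all 27025 promoters, and 28 (73.7%) held CCAAT, against 37.9%. At least 2 CCAAT boxes were found in 20 of the 38 (52.6%), against 12.2% of all promoters, and CCAAT together with TTTGAA or TTTAAA in 24 (63.2%), against 10.9%. TTTAAA was found in 6 of the 38 (15.8%), near its share of all promoters (13.2%), and 4 of these 6 also held TTTGAA. The letters GGCGGGAA, known from E2F-bound promoters, were in 0 of the 38, against 2.24% of all promoters and 4 of 19 S phase genes (21.1%). The S phase genes held TTTGAA in 2 of 19 promoters (10.5%) and CCAAT in 13 (68.4%), so the CHR letters set the 2 lists apart more than the CCAAT box did. These matches describe letters in a window and were not tested for binding. Promoters of *Tpx2*, *Bora*, *Cdc25c*, *Ccna2*, *Dlgap5* and *Foxm1* were not analysed here.

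Sequencing depth differed between groups. Totals ran from 399832 to 3266227 counts in ctrl mice, from 552186 to 5396803 in dKO mice and from 4178461 to 8800987 in cKO mice, which were thus all deeper than the ctrl mice. Levels are CPM, counts divided by the library total scaled by TMM. Before TMM scaling, 3 counts corresponded to 7.50 CPM at the lowest depth and 0.341 CPM at the highest. cKO mouse S2 had 2 libraries, which differed by little more than sampling noise (chi-square of 1.14 per degree of freedom over 13658 genes, against 3.56 to 27.4 for other pairs of cKO libraries) and were summed. Mice came from 4 litters and 3 batches. Litter 1 held ctrl mice 2 and 6 and cKO mice 5 and 7. Litter 2 held ctrl mice S1 and S3 and cKO mouse S2. Litter 3 held ctrl mice T3, T4 and T5 and dKO mice T2 and T8, and litter 4 held cKO mouse F3 and dKO mice F1 and F7. *Knl1* was between 48.7 and 80.0 CPM in ctrl, 50.0 and 80.4 CPM in cKO and 33.4 and 58.2 CPM in dKO, and did not pass the test in any comparison (edgeR FDR of 1). *Trp53* likewise did not pass (edgeR FDR of 1), with 15.6 to 47.0 CPM in ctrl and 19.8 to 32.3 CPM in dKO. The labelled tissue was checked against its markers: the counted neuron markers summed to between 2802 and 3890 CPM, while *Sox2* and *Tubb3*, which lie within other annotated genes on the same strand, had no count in any mouse. Of 361 protein-coding genes nested in this way, 351 (97.2%) had none.

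The 44 genes together took between 0.130% of the counts (dKO mouse F7, 95% Wilson interval 0.127% to 0.133%) and 0.250% (ctrl mouse S3, 0.243% to 0.257%). These intervals cover counting error only. Per kilobase of gene span, the highest mean levels in ctrl were those of *Hmgb2*, a chromatin protein (10.6 ± 4.01 CPM per kb, SD, n = 7), and *Mki67*, which encodes the Ki-67 coat of mitotic chromosomes (9.84 ± 3.11). *Ccna2*, the S and G2 cyclin, followed at 5.79 ± 1.61 CPM per kb and *Top2a*, the topoisomerase that untangles sister DNA, at 4.88 ± 1.36. *Hmgb2* and *Mki67* lay within 1 SD of each other, as did *Ccna2* and *Top2a*, whereas *Mki67* and *Ccna2* did not. *Mybl2*, which encodes B-MYB, and *Kif18a*, a kinesin that limits the length of kinetochore fibres, had the lowest levels (0.484 ± 0.158 and 0.490 ± 0.176 CPM per kb). Per kilobase of exon the order changed, and *Ckap5*, a microtubule polymerase whose gene spans 93.9 kb, came first at 26.5 CPM per kb, ahead of *Mki67* at 26.0. Another annotated gene on the same strand overlapped 12 of the 44 genes, and reads of such overlaps may be missing from their counts.

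To ask whether *Knl1* deletion, with or without p53, altered the mRNAs of G2 and mitosis, each pair of groups was compared. No member passed the test (edgeR likelihood ratio test, FDR over all genes) in cKO versus ctrl, in dKO versus ctrl or in cKO versus dKO. In the same comparisons 83, 26 and 27 of the 51912 genes did. The share of all genes called was 0.0578% higher and 0.102% lower in cKO versus ctrl, 0.0482% higher and 0.00193% lower in dKO versus ctrl, and 0.0193% higher and 0.0327% lower in cKO versus dKO. By edgeR's quasi-likelihood test, with 352, 113 and 184 calls over all genes, and by DESeq2, no member passed either. The comparisons share mice, and their values are therefore not independent.

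The median log2 fold change of the 44 genes was −0.19 in cKO versus ctrl (range −0.48 to 0.41), against 0.04 for 10992 expressed genes. In dKO versus ctrl it was −0.18 (range −0.78 to 0.30), against 0.01. Between cKO and dKO it was 0.04 (range −0.40 to 0.89), against 0.05. The standard error of a single gene had a median of 0.23, 0.26 and 0.27 on the log2 scale. The 95% interval lay wholly within a log2 fold change of 1 in either direction for 42, 36 and 39 of the 44 genes. It lay within a 1.5-fold change for only 13, 10 and 12, so smaller changes were not excluded for most members. In cKO versus ctrl 36 of 44 log2 fold changes were below 0, against 41.5% of expressed genes, and in dKO versus ctrl 35 of 44, against 46.8%.

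**Figure D1:**
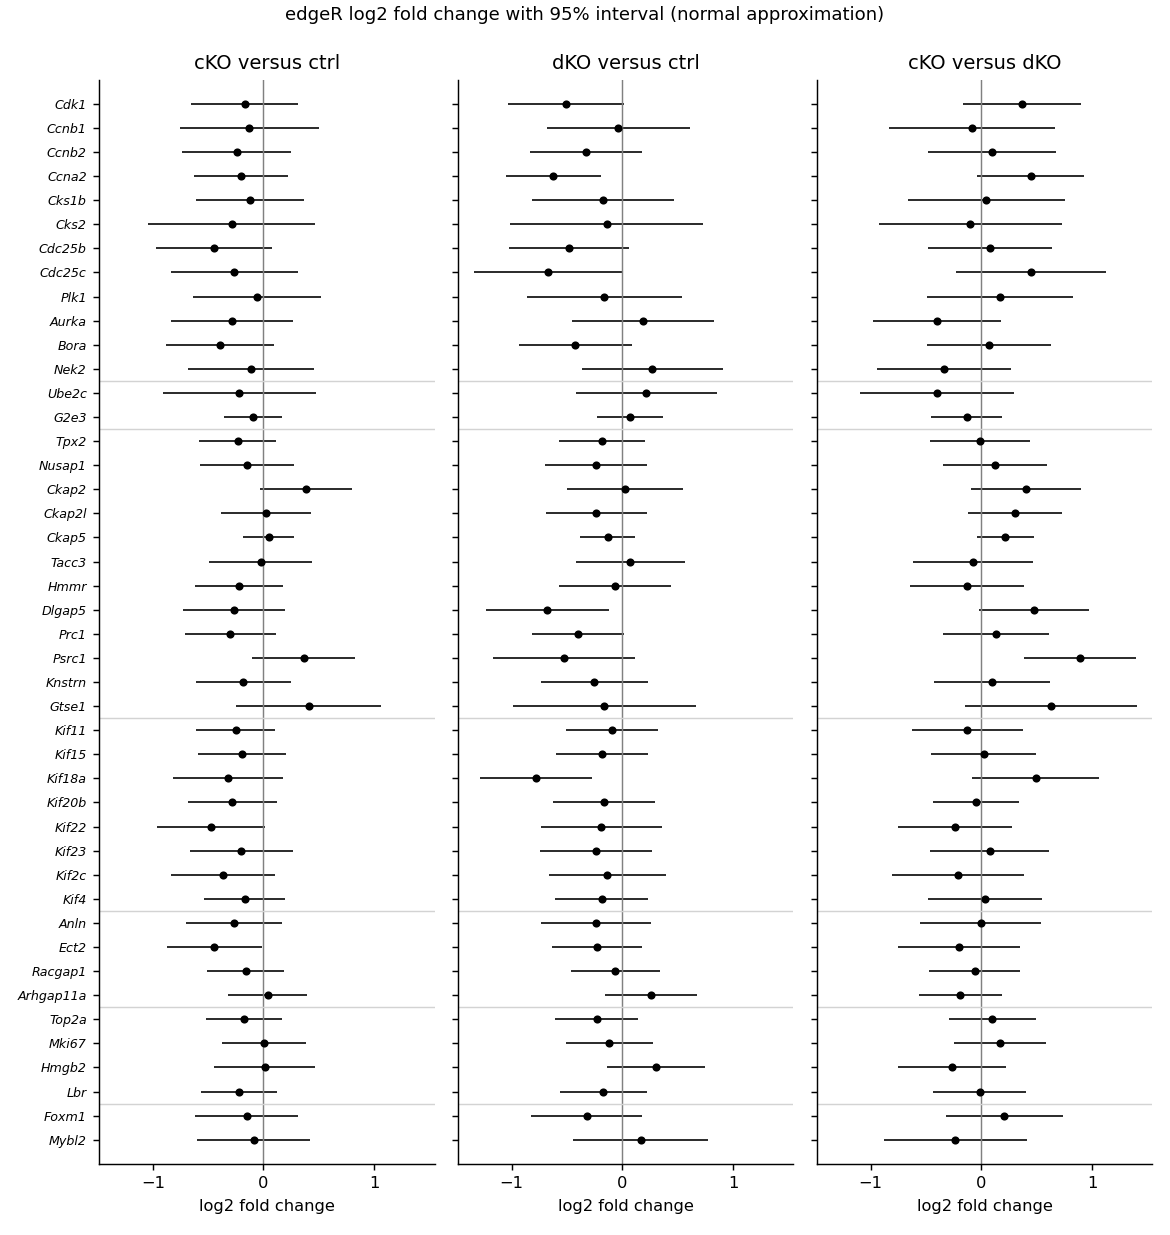
Log2 fold change of each of the 44 genes in the 3 comparisons of groups (points, edgeR) with 95% intervals (bars, normal approximation), ordered by role, with grey lines between roles. Points lie between −0.78 and 0.89, nearly every interval spans 0, and no gene passed an FDR of 0.05.

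The position of the median moved with litter. Litter 2, the litter with the highest levels, held 2 ctrl mice and 1 cKO mouse, and litter 4, with low levels, held no ctrl mouse. With litter in the model the median over the 44 genes was 0.04 in cKO versus ctrl, −0.05 in dKO versus ctrl and −0.03 in cKO versus dKO. In this model dKO versus ctrl rests on litter 3 alone. Likewise, cKO versus dKO rests on litter 4 alone, with cKO mouse F3 against dKO mice F1 and F7. Among the mice of batch 1, in which litters 1 and 2 held both genotypes, it was 0.02 in cKO versus ctrl. Among the mice of batch 3 it was −0.26 in dKO versus ctrl, but there litter 4 held no ctrl mouse. Without cKO mouse S2, the cKO mouse of litter 2, the median in cKO versus ctrl was −0.40 and 16 members were lower at an unadjusted edgeR p below 0.05, against 1 with it. Calls over all genes at an edgeR FDR below 0.05 also rose, from 83 with S2 to 373 without, and the median of expressed genes was 0.03. Of expressed genes 3.82% were lower at that unadjusted p with S2. The share without S2 is not given, so the 16 members cannot be set against it. The median between cKO and dKO changed sign with RLE scaling (−0.03), with totals only (−0.08), in DESeq2 (−0.05) and with batch in the model (−0.23). With RLE scaling, totals only and DESeq2 the median of expressed genes was −0.002, −0.04 and −0.001, against 0.05 with TMM, so the scaling moved it as well. With batch in the model it was 0.03, near its value without batch, while the median of the members moved. That fit rests on F3, the only cKO mouse of batch 3.

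The switch into mitosis comprised 12 of the genes, of which 12 were below 0 in cKO versus ctrl and 10 in dKO versus ctrl, and 0 passed the test. This turned with litter in the model, where 9 of the 12 were above 0 in cKO versus ctrl and 5 in dKO versus ctrl. *Cdk1*, the kinase itself, was 6.67, 15.1 and 21.7 CPM at the lowest, median and highest ctrl mouse. It was 10.2, 13.2, 19.7 and 12.7 CPM in cKO mice 5, 7, S2 and F3. In dKO mice T2, T8, F1 and F7 it was 13.3, 9.24, 11.2 and 11.2 CPM. Values of both deleted groups lay within the ctrl range, and the log2 fold changes were −0.17 (standard error 0.25) and −0.51 (0.27), each with an edgeR FDR of 1. *Ccnb1*, the cyclin that activates CDK1, was 6.72, 9.81 and 19.8 CPM in ctrl, between 6.50 and 17.9 CPM in cKO and between 6.60 and 19.9 CPM in dKO. *Plk1*, a kinase that acts at centrosomes and kinetochores, was 4.67, 9.41 and 22.2 CPM in ctrl, 7.73 to 17.2 CPM in cKO and 6.79 to 23.2 CPM in dKO. For both genes the 3 groups overlapped. The log2 fold change in cKO versus ctrl with litter in the model was 0.26 (standard error 0.25) for *Ccnb1* and 0.22 (0.25) for *Plk1*.

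*Cdc25b*, a phosphatase that activates CDK1, was among the genes with the smallest p below 0 in cKO versus ctrl, at −0.45 (standard error 0.27). Its 4 cKO mice lay between 9.55 and 19.0 CPM, inside the ctrl range of 8.89 to 37.4 CPM, whose top was ctrl mouse T3. *Bora*, the activator of Aurora A, had a log2 fold change of −0.39 (standard error 0.25) in cKO versus ctrl and −0.43 (0.26) in dKO versus ctrl. In cKO versus ctrl, *Cdc25b* was −0.04 (standard error 0.23) and *Bora* 0.01 (0.20) with litter in the model. *Aurka* (Aurora A), *Ube2c*, the ubiquitin-conjugating enzyme of the anaphase-promoting complex, and *Nek2*, a centrosomal kinase, had the smallest p among members below 0 in cKO versus dKO. Their log2 fold changes were −0.40 (standard error 0.29), −0.40 (0.36) and −0.34 (0.31), each with an edgeR FDR of 1. With litter in the model they were −0.06 (0.29), 0.15 (0.31) and −0.21 (0.39). That fit rests on cKO mouse F3 against dKO mice F1 and F7, as only litter 4 held both groups. *Aurka* ran from −0.63 to −0.07 in the fit without litter when each mouse was left out. The level of *Ube2c* was 3.36, 14.0 and 22.3 CPM in ctrl, 6.09, 10.5, 12.3 and 22.3 CPM in cKO mice 5, 7, S2 and F3, and 14.9, 9.24, 23.6 and 17.7 CPM in dKO mice T2, T8, F1 and F7. *G2e3*, a ubiquitin ligase named for its G2 expression, varied less, between 62.2 and 116 CPM over all mice.

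*Ccna2* was 28.9, 38.6 and 55.5 CPM at the lowest, median and highest ctrl mouse. In cKO mice 5, 7, S2 and F3 it was 30.3, 37.8, 55.5 and 27.3 CPM. In dKO mice T2, T8, F1 and F7 it was 36.5, 30.5, 28.1 and 22.7 CPM. The dKO mice were thus all below the ctrl median, T2 and T8 inside the ctrl range and F1 and F7 below every ctrl mouse. F1 and F7 came from litter 4, which held no ctrl mouse. The highest cKO mouse, S2, equalled the top of the ctrl range. The gene had a log2 fold change of −0.63 in dKO versus ctrl, with a standard error of 0.22 and an edgeR FDR of 0.853, and the exact permutation test over mice gave p = 0.0727. With litter in the model it was −0.38 (standard error 0.31).

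Among the 12 spindle and microtubule-binding genes 5 were above 0 and 7 below in cKO versus ctrl, and 2 above and 10 below in dKO versus ctrl. Adding litter to the model left 10 above 0 in cKO versus ctrl and 5 in dKO versus ctrl. *Dlgap5*, which stabilizes kinetochore fibres, was 14.2, 25.7 and 35.3 CPM in ctrl. It was 20.7, 20.0, 27.5 and 16.8 CPM in cKO mice 5, 7, S2 and F3, and 16.6, 23.1, 16.3 and 10.9 CPM in dKO mice T2, T8, F1 and F7. Only F7 lay below the ctrl range, and the log2 fold change against ctrl was −0.68, with a standard error of 0.28 and an edgeR FDR of 1. *Tpx2*, the spindle assembly factor that activates Aurora A, was 60.0, 78.1 and 112 CPM in ctrl, 54.2 to 92.0 CPM in cKO and 50.5 to 104 CPM in dKO. Its log2 fold change was −0.23 (standard error 0.18) in cKO versus ctrl.

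*Psrc1*, a microtubule-binding protein of the spindle that is known as a p53 target, did not follow the other members. It was 8.23, 9.34 and 17.4 CPM at the lowest, median and highest ctrl mouse. In cKO mice 5, 7, S2 and F3 it was 12.2, 15.8, 17.5 and 13.9 CPM, and in dKO mice T2, T8, F1 and F7 it was 0, 11.1, 7.85 and 9.12 CPM. Every cKO mouse was above every dKO mouse, whereas both groups overlapped ctrl. In T2 the count was 0, which allows up to 4.97 CPM (3 counts, TMM-scaled). The log2 fold change in cKO versus dKO was 0.89 (standard error 0.26, edgeR FDR of 0.258). It remained between 0.74 and 1.02 when any mouse was left out, 0.74 being the value without T2, and was 0.71 (standard error 0.35) with litter in the model. The fit with litter rests on cKO mouse F3 against dKO mice F1 and F7, as only litter 4 held both groups. The exact permutation test gave p = 0.0286, the smallest that 4 against 4 mice can give, among 44 such tests. At an unadjusted edgeR p below 0.05 *Psrc1* was the 1 member higher in cKO than in dKO, where 2.58% of 12484 expressed genes were. In cKO versus ctrl *Psrc1* was 0.36 (standard error 0.24), and in dKO versus ctrl −0.53 (0.33), both with an edgeR FDR of 1.

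*Ckap5* was the other member without overlap between cKO and dKO, and is named because its values were seen. It was 271, 254, 288 and 242 CPM in cKO mice 5, 7, S2 and F3 and 202, 240, 242 and 230 CPM in dKO mice T2, T8, F1 and F7. The lowest cKO mouse and the highest dKO mouse were close together, and the log2 fold change was 0.22 (standard error 0.13, edgeR FDR of 1). Together 2 of 44 members (4.55%) did not overlap in this direction, against 2.73% of expressed genes. In cKO versus ctrl and in dKO versus ctrl all 44 members overlapped, where 0.937% and 0.301% of expressed genes lay wholly above ctrl and 0.337% and 0.394% wholly below.

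*Ckap2*, a spindle pole protein, and *Gtse1*, a G2 protein that binds p53 and microtubules, stood with *Psrc1* at the top of cKO versus ctrl. *Ckap2* was 13.3, 15.2 and 25.6 CPM in ctrl, 19.5, 23.5, 32.0 and 22.3 CPM in cKO mice 5, 7, S2 and F3, and 24.9, 27.7, 16.3 and 13.4 CPM in dKO mice T2, T8, F1 and F7. *Gtse1* was 4.71, 9.34 and 16.4 CPM in ctrl, 6.70, 16.8, 15.1 and 9.55 CPM in the cKO mice and 6.63, 15.7, 7.85 and 3.88 CPM in the dKO mice in the same order. For *Ckap2* every cKO mouse was above the ctrl median, and in litters 1 and 2 the cKO mice were above their ctrl littermates. In litter 3, dKO mice T2 and T8 were above their ctrl littermates as well. In litter 4, cKO mouse F3 was above dKO mice F1 and F7. The log2 fold changes in cKO versus ctrl were 0.38 (standard error 0.21) for *Ckap2* and 0.41 (0.33) for *Gtse1*. With litter in the model they were 0.49 (0.20) and 0.60 (0.27), and *Psrc1* was 0.54 (0.24). None of the 3 genes passed in either model (edgeR FDR of 1). In cKO versus ctrl, leaving out cKO mouse S2 gave the lowest value for *Ckap2*, 0.20. In dKO versus ctrl *Ckap2* was 0.02 (standard error 0.27) without litter and 0.60 (0.40) with it, the latter resting on litter 3 alone.

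**Figure D2:**
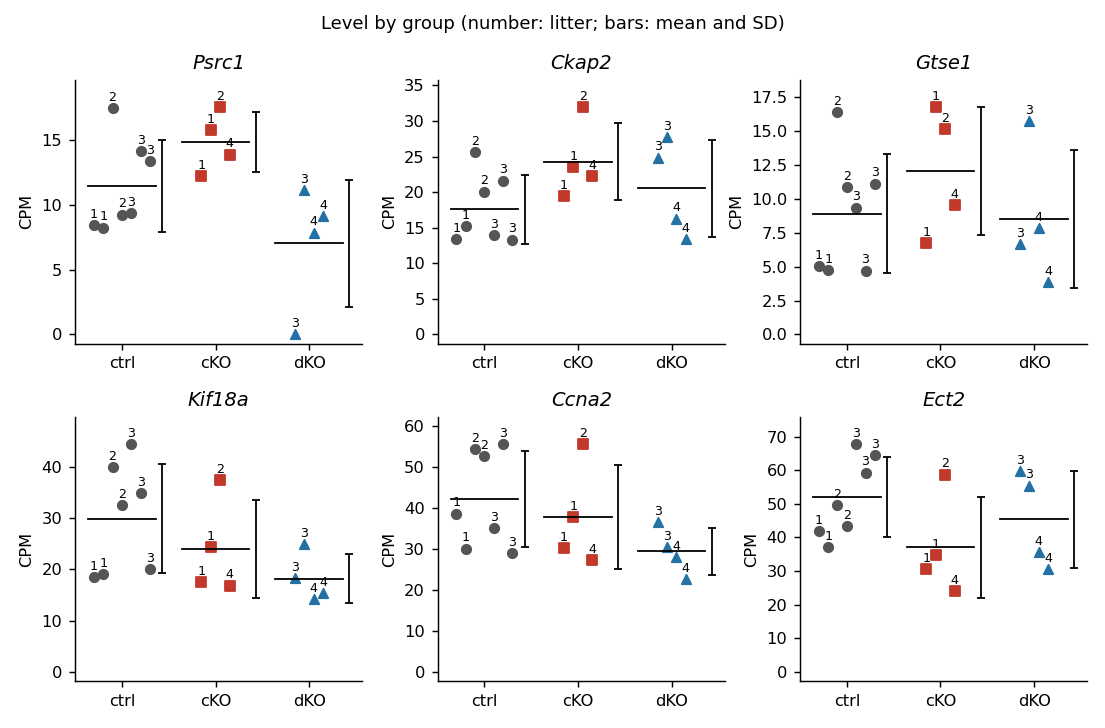
CPM (y axis, from 0) of 6 genes in each ctrl (circles), cKO (squares) and dKO (triangles) mouse, with the litter number at each point, a line at the mean of each group and a bar of 1 SD. *Psrc1* separates cKO (12.2 to 17.5 CPM) from dKO (0 to 11.1 CPM), and in *Kif18a* and *Ect2* mice of litters 1 and 4 lie low in each group.

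All 8 kinesin genes were below 0 in cKO versus ctrl (median −0.27) and in dKO versus ctrl (median −0.18), without a call. In the fits with litter as a covariate, 6 of the 8 were above 0 in cKO versus ctrl (median 0.04) and 5 in dKO versus ctrl (median 0.06). *Kif18a* was 18.5, 32.6 and 44.4 CPM at the lowest, median and highest ctrl mouse. It was 17.5, 24.2, 37.3 and 16.8 CPM in cKO mice 5, 7, S2 and F3, and 18.2, 24.9, 14.2 and 15.3 CPM in dKO mice T2, T8, F1 and F7. The ctrl mice of litter 1 were as low as dKO mouse T2, and F1 and F7 were below every ctrl mouse. Against ctrl the log2 fold change in dKO was −0.78 (standard error 0.26), with the smallest p among members in that comparison, an edgeR FDR of 0.783 and an exact permutation p = 0.0667. It was −0.57 (0.36) with litter in the model and −0.96 (0.32) among the mice of batch 3. In all, *Kif18a*, *Ccna2*, *Dlgap5* and *Cdc25c*, a phosphatase that activates CDK1, were the 4 members lower at an unadjusted edgeR p below 0.05 in dKO versus ctrl, where 2.42% of 9638 expressed genes were. With litter in the model 0 members were, in either direction.

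*Kif11* (Eg5), which pushes spindle poles apart, was 57.6, 88.9 and 106 CPM in ctrl, 55.7 to 96.8 CPM in cKO and 42.5 to 102 CPM in dKO. *Kif15*, which works beside Eg5, was 33.3, 64.6 and 85.6 CPM in ctrl, 42.0 to 79.0 CPM in cKO and 40.2 to 80.4 CPM in dKO. *Kif22*, a chromosome-bound kinesin, had a log2 difference of −0.48 between cKO and ctrl, with a standard error of 0.25 and an edgeR FDR of 1. Its cKO mice were 11.2, 15.5, 19.6 and 12.7 CPM, all inside the ctrl range of 8.40 to 28.7 CPM.

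Of the 4 cytokinesis genes, *Ect2*, the guanine nucleotide exchange factor that acts at the cleavage furrow, was the 1 member lower at an unadjusted edgeR p below 0.05 in cKO versus ctrl, where 3.82% of expressed genes were. It was 37.0, 49.7 and 67.7 CPM at the lowest, median and highest ctrl mouse. It was 30.5, 34.8, 58.7 and 24.1 CPM in cKO mice 5, 7, S2 and F3, and 59.7, 55.4, 35.6 and 30.7 CPM in dKO mice T2, T8, F1 and F7. Of the cKO mice 5, 7 and F3 lay below every ctrl mouse, and S2 lay inside the ctrl range. Against ctrl the log2 fold change in cKO was −0.44, with a standard error of 0.22, an edgeR FDR of 0.992 and an exact permutation p = 0.0667. It was 0.03 (standard error 0.16) with litter in the model and −0.02 (0.27) in batch 1. Without cKO mouse S2 it was −0.75 with an edgeR FDR of 0.0164, the 1 call of a member in any alternative of the 3 comparisons. *Racgap1*, the GTPase-activating subunit of centralspindlin, was 35.8, 50.8 and 67.6 CPM in ctrl, 38.6 to 57.2 CPM in cKO and 35.1 to 64.7 CPM in dKO. *Arhgap11a*, a GTPase-activating protein, was 0.26 (standard error 0.21) in dKO versus ctrl.

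Among the 4 chromatin genes, *Mki67* was 150, 298 and 364 CPM at the lowest, median and highest ctrl mouse, 198, 246, 274 and 347 CPM in cKO mice 5, 7, S2 and F3, and 164, 329, 270 and 197 CPM in dKO mice T2, T8, F1 and F7. The groups overlapped, and the log2 fold change was 0.01 (standard error 0.19) in cKO versus ctrl and −0.12 (0.20) in dKO versus ctrl. In cKO versus dKO with litter in the model it was 0.59, a fit that rests on cKO mouse F3 against dKO mice F1 and F7 of litter 4. *Top2a* was 104, 176 and 209 CPM in ctrl, 119, 127, 175 and 128 CPM in the cKO mice and 104, 174, 149 and 93.7 CPM in the dKO mice in the same order. Its log2 fold changes were −0.18 (standard error 0.17) and −0.23 (0.19). *Hmgb2* had the smallest p among members above 0 in dKO versus ctrl, at 0.30 (standard error 0.22, edgeR FDR of 1), with 20.2 to 70.2 CPM in ctrl and 40.2 to 67.9 CPM in dKO.

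The transcription factors that drive the program overlapped between the groups as well. *Foxm1* was 17.8, 22.2 and 44.6 CPM in ctrl, 18.5, 22.8, 36.6 and 20.9 CPM in cKO mice 5, 7, S2 and F3, and 18.2, 28.6, 26.0 and 15.5 CPM in dKO mice T2, T8, F1 and F7. *Mybl2* was 10.2, 13.4 and 24.5 CPM in ctrl, 9.55 to 19.4 CPM in cKO and 8.34 to 26.5 CPM in dKO. The log2 fold change in cKO versus ctrl was −0.15 (standard error 0.24) for *Foxm1* and −0.09 (0.26) for *Mybl2*, and the 95% intervals of both lay within a log2 fold change of 1.

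What the members shared was their variation between litters. The mean log2 CPM over the 44 genes was 4.86 ± 0.32 (SD, n = 7) in ctrl, 4.75 ± 0.33 (n = 4) in cKO and 4.75 ± 0.31 (n = 4) in dKO. By litter it was between 4.34 and 4.74 in litter 1, 5.03 and 5.26 in litter 2, 4.85 and 5.06 in litter 3 and 4.31 and 4.77 in litter 4. Mice of litters 1 and 4 were thus all below mice of litters 2 and 3, whatever their genotype. Within litters the difference between group means was 0.18 (cKO minus ctrl, litter 1), 0.06 (cKO minus ctrl, litter 2), 0.01 (dKO minus ctrl, litter 3) and 0.01 (cKO minus dKO, litter 4). Litter accounted for a median of 50.3% of the variance of a member over the 15 mice, against 26.3% for expressed genes and 21.4% for values without structure. The group accounted for 7.54%, against 12.6% and 14.3%, and batch for 6.78%. The share was larger for litter than for group in 43 of 44 genes, *Psrc1* being the exception (13.7% for litter, 31.6% for group). The matching count over expressed genes is not given, and litter, with 4 levels against 3, has the larger share even without structure. The share for litter was highest in *Ect2*, at 85.9%.

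**Figure D3:**
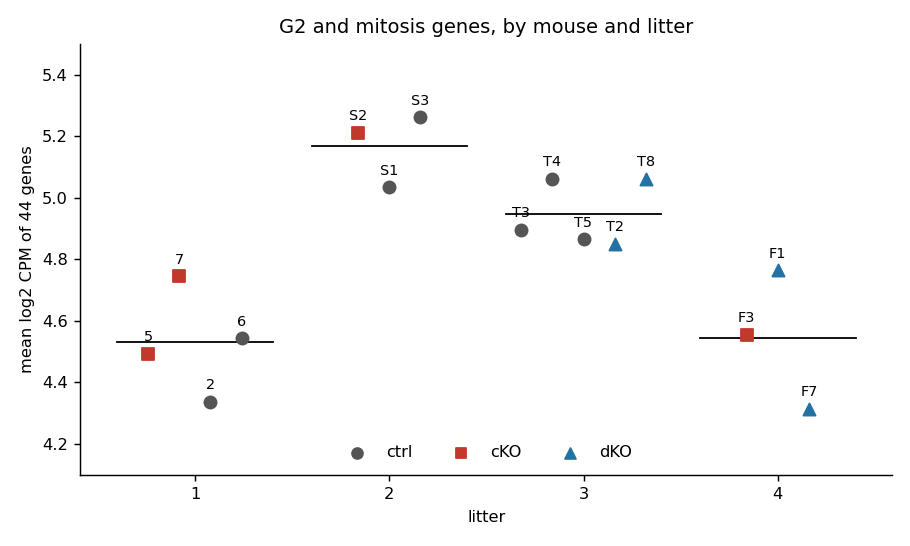
Mean log2 CPM of the 44 genes (y axis, not from 0) in each mouse, by litter, with ctrl as circles, cKO as squares and dKO as triangles and a line at the mean of each litter. Litters 1 and 4 (4.31 to 4.77) lie below litters 2 and 3 (4.85 to 5.26), and the groups are mixed within each litter.

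The comparison of litters was added after the data had been seen, on litters 1 and 2, which both held ctrl and cKO mice, with the group in the model. In litter 2, 27 of the 44 genes were higher at an edgeR FDR below 0.05, against 0.572% of all genes and 2.32% of 12458 expressed genes. All 44 log2 fold changes were above 0, between 0.14 and 1.11, with a median of 0.67, against 0.02 for expressed genes. For 30 of the 44 genes every mouse of litter 2 was above every mouse of litter 1, as for 7.74% of expressed genes. The litters share no mouse but differ in everything else that distinguishes pregnancies, and the labels give no age within E15.5, dissection or extraction record by litter, so what set them apart was not tested.

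Every kinesin passed, 8 of 8, as did 6 of 12 genes of the switch into mitosis, 5 of 12 spindle genes, 3 of 4 cytokinesis genes, 3 of 4 chromatin genes, 1 of 2 ubiquitin enzymes and 1 of 2 transcription factors. *Top2a* was 109 to 127 CPM in litter 1 and 175 to 209 CPM in litter 2 (log2 fold change 0.68, standard error 0.12, edgeR FDR of 1.14e-05). *Kif18a* was 17.5 to 24.2 CPM and 32.6 to 40.0 CPM (0.91, 0.17, edgeR FDR of 8.53e-05). *Tpx2* was 54.2 to 63.8 CPM and 84.7 to 112 CPM (0.69, 0.13, edgeR FDR of 9.36e-05). In each of these the litters were separated by a gap wider than the spread within litter 1. *Mki67* was 150 to 246 CPM in litter 1 and 274 to 364 CPM in litter 2. *Cdk1* was 10.1 to 13.3 CPM and 19.7 to 21.7 CPM, and *Foxm1* was 18.5 to 22.8 CPM and 30.4 to 44.6 CPM. *Ube2c* had the largest log2 fold change, 1.11 (standard error 0.26, edgeR FDR of 0.00427). At the other end *Ckap5* (0.14, standard error 0.12), *Ccnb2*, a partner of CDK1 (0.42, 0.22), and *Mybl2* (0.44, 0.24) did not reach an unadjusted edgeR p of 0.05.

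Within batch 1, which leaves out ctrl mouse S1 of batch 2, 27 members were higher in litter 2. Among the 4 ctrl mice of these litters alone 5 members passed, *Top2a*, *Mki67*, *Ube2c*, *Dlgap5* and *Kif20b*, a kinesin of late mitosis, and the median was 0.72. Leaving out cKO mouse S2 left 7 members with a median of 0.73, and leaving out ctrl mouse S3, ctrl mouse 6 or cKO mouse 5 left 15, 16 and 16. Calls over all genes, in either direction, moved as well. They were 636 with all mice of litters 1 and 2, 649 within batch 1 and 135 among ctrl mice alone. Without mice S2, S3, 6 and 5 in turn they were 238, 330, 463 and 349. In litter 3 versus litter 1, among ctrl mice only, 41 of 44 log2 fold changes were above 0 with a median of 0.56, against −0.04 for expressed genes. None passed, where 0.0405% of all genes were higher, and 17 were higher at an unadjusted edgeR p below 0.05, against 3.57% of expressed genes. Litter 3 was made in batch 3 and litter 1 in batch 1, so litter and batch cannot be told apart there, and both comparisons share the ctrl mice of litter 1.

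**Figure D4:**
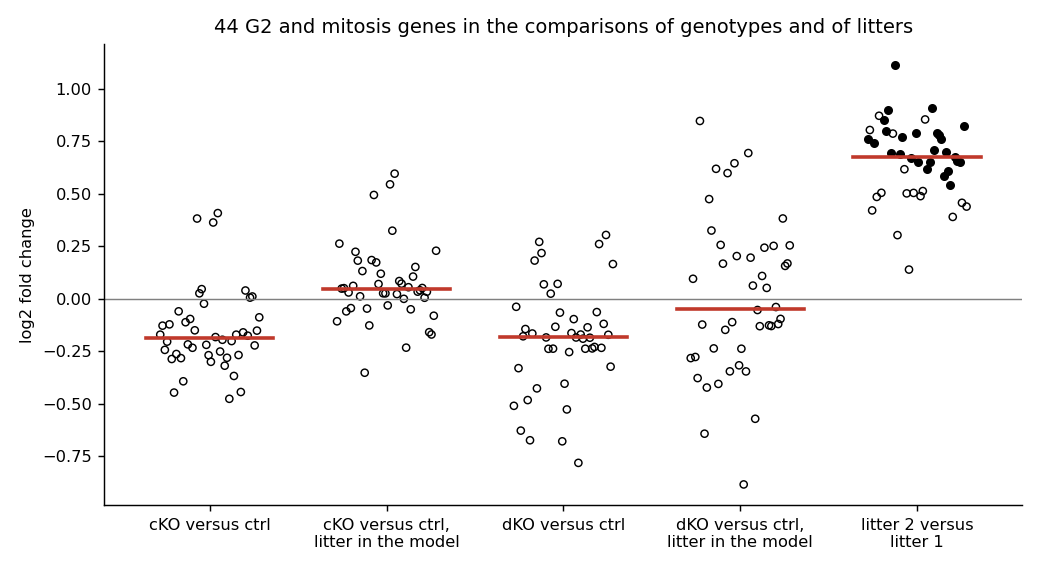
Log2 fold change of the 44 genes (points, filled at an edgeR FDR below 0.05) in cKO versus ctrl and dKO versus ctrl, without and with litter in the model, and in litter 2 versus litter 1, with a red line at the median. The medians are −0.19, 0.04, −0.18, −0.05 and 0.67, and filled points (27) occur only in the comparison of litters.

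Across the 15 mice, members followed each other. The correlation of a member with the mean of the other members had a median of 0.68, from 0.05 for *Psrc1* to 0.94 for *Nusap1*, a spindle microtubule bundler. *Ckap5* (0.29) and *Ckap2l*, a spindle pole protein (0.33), were next to *Psrc1* at the low end. After the mean of each litter was removed the median was 0.36. These correlations describe 15 mice that share litters and differ in depth, and low counts lower them.

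**Figure D5:**
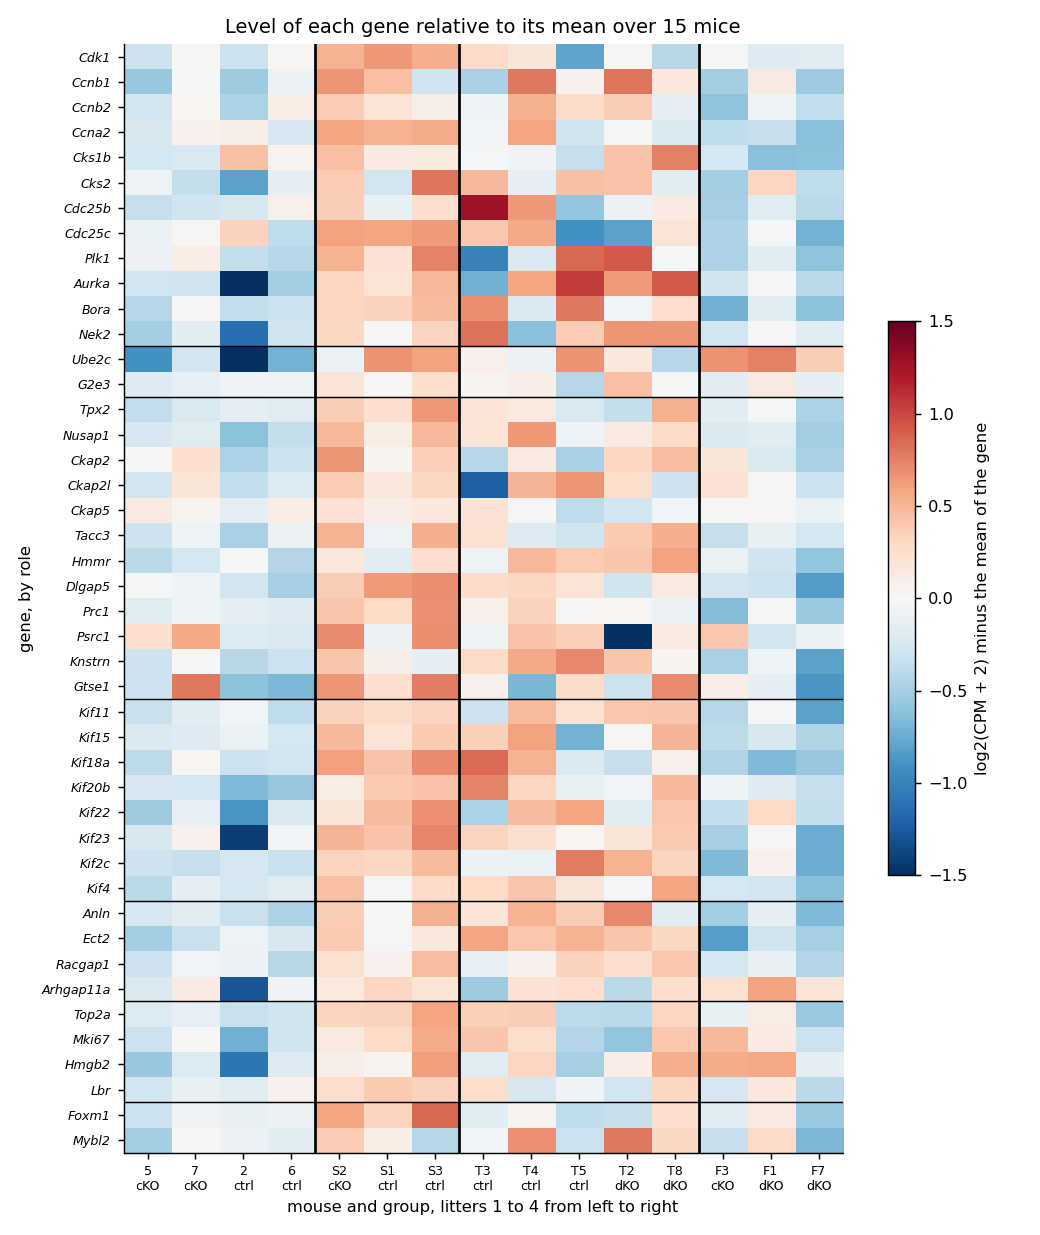
Log2(CPM + 2) of each of the 44 genes (rows, by role) in each of the 15 mice (columns, by litter, group named below) minus the mean of the gene, from blue (lower) to red (higher), with colors ending at −1.5 and 1.5. Litter 2 is red in nearly every row and litters 1 and 4 are mostly blue, in ctrl, cKO and dKO mice alike.

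Of 42 other mitosis genes, 0 passed in cKO versus ctrl (median −0.17) and 0 in dKO versus ctrl (median −0.18), while 18 were higher in litter 2 than in litter 1 (median 0.63). Of 24 S phase genes, 0 passed in cKO versus ctrl (median −0.13), and 11 were higher in litter 2 (median 0.62). Of 14 subunits of DREAM, MuvB and NF-Y, which act on the promoters above, 0 passed in cKO versus ctrl and 1 was higher in litter 2, *Rbl1*, which encodes the p107 subunit (0.72, standard error 0.15). Of 10 brakes on mitotic entry, *Cdkn1a*, which encodes the p53-induced CDK inhibitor p21, rose in cKO versus ctrl by 1.70 on the log2 scale, with a standard error of 0.34 and an edgeR FDR of 0.00366. Its mean was 1.73 CPM in ctrl, 7.99 CPM in cKO and 1.71 CPM in dKO, and it was also higher in cKO than in dKO (2.01, standard error 0.37, edgeR FDR of 0.00041). The ctrl and dKO means are near the floor. In ctrl mice 2, T3, T4 and T5 and dKO mice T2 and T8, 3 counts (TMM-scaled) equal 2.77 to 7.00 CPM, against at most 0.750 CPM in cKO mice. In cKO versus ctrl the median of the 44 genes was −0.19 without a call, and 0.04 with litter in the model. A link between *Cdkn1a* and the 44 genes was not tested.

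Markers of cell types were set beside the members. Of 8 apical progenitor markers, 0 passed in cKO versus ctrl, with sums of 415 to 691 CPM in ctrl, 449 to 574 CPM in cKO and 464 to 640 CPM in dKO. Of 5 intermediate progenitor markers, *Eomes* and *Neurog2*, transcription factors of these cells, fell in cKO versus ctrl by 1.13 (standard error 0.18) and 1.19 (0.25) on the log2 scale (edgeR), and the sum was 156 to 213 CPM in ctrl and 87.3 to 161 CPM in cKO. The mean log2 CPM of the 44 genes minus that of the intermediate progenitor markers was between 0.38 and 0.61 in cKO, above every ctrl mouse (−0.44 to 0.17). It was −0.04 to 0.43 in dKO. Between cKO and ctrl the mean of the subtracted markers differed by −0.70 and that of the 44 genes by −0.11, so the gap came mostly from the markers. Relative to apical progenitor markers the mean of the 44 genes was 0.02 to 0.30 in cKO, inside the ctrl range of −0.26 to 0.58. Relative to S phase genes it was 0.59 to 0.69 in cKO, inside the ctrl range of 0.47 to 0.99. Of 6 interneuron markers 1, *Gad1*, was higher in cKO (0.56, standard error 0.14), with sums of 382 to 806 CPM in ctrl and 712 to 873 CPM in cKO. Sums of microglia markers (7.06 to 28.9 CPM in ctrl, 12.5 to 24.6 CPM in cKO), endothelial markers (65.0 to 119 and 74.3 to 94.5 CPM) and erythroid markers (9.41 to 25.0 and 17.5 to 28.7 CPM) overlapped, and none of these markers and none of the 7 cortical neuron markers passed in cKO versus ctrl. The neuron markers summed to 2858 to 3321 CPM in ctrl, 3132 to 3890 CPM in cKO and 2802 to 3688 CPM in dKO. Their mean log2 CPM was above that of every ctrl mouse in 3 of 4 cKO mice, and its litter means were 7.48, 7.25, 7.28 and 7.50 in litters 1 to 4, against 4.53, 5.17, 4.95 and 4.54 for the 44 genes. These litter means mix genotypes. In litter 1 the mean log2 CPM of the neuron markers was 7.39 in ctrl and 7.58 in cKO, and litter 4 held no ctrl mouse. In dKO versus ctrl 1 marker passed, the erythroid *Hba-a2* (1.98). In litter 2 versus litter 1, apical progenitor genes *Pax6*, *Hes1* and *Hes5* were higher, and *Mapt*, among the cortical neuron markers, the microglial *Csf1r* and the erythroid *Hbb-y* also passed, the former pair lower (−0.52 and −1.42) and the last higher (3.30). The part of these cell types in the levels of the 44 genes was not tested.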

How the data were processed

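RNA of micro-dissected E15.5 cortex was sequenced by Click-seq with UMIs after rRNA depletion. The authors trimmed reads with cutadapt (1.13), aligned them with STAR (2.5.2a) to GRCm38/mm10, de-duplicated them with UMI-tools (0.5.3) and deposited whole-number counts per gene from htseq-count (0.6.1p1, intersection-nonempty mode), without normalization. The annotation release, the feature counted and the strand setting are not given in the sources used here. Since 97.2% of protein-coding genes nested in another on the same strand, but 24.6% of those nested on the opposite strand, had no count, the counts appear to use strand and whole gene spans.

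The 5 summary lines of each file were left out, and libraries S2 and S2b were summed. Groups, litters and batches came from the labels. Each pair of groups was fitted with edgeR 4.0.16 in R 4.3.3 (TMM, estimateDisp, glmFit, glmLRT, no filter, no covariate), and FDR values are Benjamini–Hochberg adjusted over 51912 genes, with 0.05 as threshold. Expressed genes are those kept by filterByExpr. CPM were computed from the counts with TMM over 15 mice, and log2 CPM with a prior count of 2. Single genes were also compared by two-sided exact permutation tests over mice. Intervals of 95% are normal approximations from the standard errors. The alternatives were the quasi-likelihood test, DESeq2 1.42.0, other scalings, filterByExpr, all 3 groups in 1 fit, litter, batch or sex as covariate, wild-type ctrl mice only, mice of 1 batch, either S2 library alone, and each mouse left out.

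The 44 genes, the other lists and the tests were chosen with earlier results of these data known, and litters were compared after the data had been seen. Named are the 3 genes with the smallest p in each direction of each comparison, the 2 with the most counts in each role, and *Cdk1*, *Ccnb1*, *Top2a*, *Mki67*, *Plk1*, *Foxm1* and *Mybl2*; others are named beside a count or as exceptions. Figures were drawn with matplotlib 3.10.9. The result of 1 cell type marker in the litter comparison is not reported here.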

Additional observations from a re-analysis of the deposited data

Results flagged for a closer look

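Among the 44 genes, 3 of 87 groups of 4 to 10 mice held a mouse far from the others by Dixon's test, and chance alone flags about 1 in 20 groups. In cKO, *Aurka*, the Aurora A kinase, was 26.2 CPM in mouse S2, against 16.2 to 16.4 CPM in the other 3 mice. *Top2a*, the topoisomerase of sister chromatids, was 175 CPM in the same mouse, against 119 to 128 CPM. S2 was the only cKO mouse of litter 2, the litter with the highest levels, and its 2 ctrl littermates were between 23.9 and 29.7 CPM for *Aurka* and between 176 and 209 CPM for *Top2a*. In ctrl, *Mybl2*, which encodes B-MYB, was 24.5 CPM in mouse T4, against 10.2 to 15.8 CPM in the other 6 mice, and T4 is 1 of the 2 heterozygous mice. What set these values apart was not tested.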

How the results depend on the processing

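No member passed an edgeR FDR of 0.05 in cKO versus ctrl, dKO versus ctrl or cKO versus dKO under any alternative, except *Ect2* without cKO mouse S2, so that leaving out each mouse in turn gave 0 to 1 members in cKO versus ctrl. *Ect2* in cKO versus ctrl changed sign with litter in the model (0.0342). In litter 2 versus litter 1, the 27 members became 5 in ctrl mice alone and 7 to 27 with each mouse left out, fewest without cKO mouse S2, with 28 by the quasi-likelihood test and 32 after filterByExpr. Calls over all genes went from 636 to 135 in ctrl mice alone, 238 without S2, 831 by the quasi-likelihood test and 1019 after filterByExpr. In litter 3 versus litter 1 the count of members went from 0 to 3 with all 15 mice, and calls over all genes from 47 to 159. The median over the members ranged from −0.40 to −0.10 in cKO versus ctrl, −0.32 to −0.003 in dKO versus ctrl and −0.20 to 0.17 in cKO versus dKO with each mouse left out. Members lower at an unadjusted edgeR p below 0.05 in dKO versus ctrl were 4, and 11 without dKO mouse T8. Calls over all genes at an edgeR FDR below 0.05 were 26 and 59 in these 2 fits. Of expressed genes 2.42% were lower at that unadjusted p with T8, and the share without T8 is not given. The cause of these shifts was not tested. The mice carry no replicate numbers shared between groups, and the blocked analysis used litter as a covariate. Depth limits the genes at a few CPM, such as *Cks2*, whose 95% interval reached beyond a log2 fold change of 1 in cKO versus ctrl and dKO versus ctrl. Litter 4 held no ctrl mouse and litter 3 no cKO mouse, so fits with litter rest on few mice per contrast. For cKO versus ctrl these were the mice of litters 1 and 2, and for dKO versus ctrl the mice of litter 3 alone. For cKO versus dKO they were cKO mouse F3 against dKO mice F1 and F7 of litter 4.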
